A study of Mus musculus with 6 samples.

Results

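The data described here are the marker genes of the leukocytes that live in the epidermis, measured in keratinocyte preparations of Med1 KO and CON mice. The set held 36 genes, of the 16593 genes named on the array. They were chosen by name as markers of epidermal T cells and of Langerhans cells, with earlier results of these data known. Of these genes 19 mark lymphocytes, 13 mark myeloid cells and 4 are pan-leukocyte genes that both kinds of cell express.

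Both groups came from mice of 10 wk on a C57BL6 background that carried MED1 fl/fl alleles. KO mice also expressed Cre recombinase from the keratin 14 (K14) promoter, which is active in basal keratinocytes, and CON mice had no Cre. Whether leukocytes in the preparations carried the deletion was not measured. Skin was treated with trypsin, the epidermis was separated, and keratinocytes were released from it. The labels name no sort against other cells. Total RNA was hybridized to a 1-colour Illumina mouse bead array, with 3 arrays per group. The labels state that keratinocytes of 2 mice made up each group and do not tie arrays to mice, so that every p-value measures only the spread between these arrays, which may be technical. Per the study, CON skin rested in telogen at this age and KO skin had moved towards anagen, so genotype and hair cycle phase cannot be told apart.

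Mouse epidermis holds a network of resident leukocytes among its keratinocytes. Dendritic epidermal T cells carry a γδ T cell receptor with the CD3 chains, lie in the basal layers and hold cytotoxic and chemokine genes ready. Langerhans cells are antigen-presenting cells of the macrophage lineage with dendritic functions, marked by the lectin langerin (the product of Cd207), and keratinocyte IL-34 maintains them through the receptor encoded by Csf1r. A preparation of epidermal cells carries RNA of both.

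Levels below are log2 intensities after background correction and quantile normalization, and changes are KO minus CON on that scale with the SE of the limma fit. Adjusted p-values are those of limma with Benjamini-Hochberg adjustment over 10386 tested probes, and a gene was called if its adjusted p lay below 0.05. A gene with several tested probes was read from the brightest. Of the 36 genes, 31 had a named probe, 49 probes in all. A probe was tested where at least 3 of the 6 arrays detected it (detection p below 0.01), and 17 genes passed, of which 11 are lymphocyte, 3 pan-leukocyte and 3 myeloid genes. No named probe was on hand for 5 genes (Lck, Epcam, Csf1r, Mpeg1 and Cd68). The probes of 9 genes were detected on none of the arrays, and those of 5 genes on 1 or 2 of them.

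The arrays differed little in quality. They detected between 38.4% and 41.4% of the probes each, and correlated at 0.989 to 0.993 within a group and at 0.965 to 0.968 between groups. Med1 was read from 1 tested probe, at 7.09, 6.81 and 6.69 in CON and 5.85, 5.71 and 6.13 in KO (change -0.96 ± 0.15, adjusted p = 0.0018). Whether the probe lies in the deleted part is unknown here, so its level is no check of the deletion on its own. Of all tested probes 27.4% were called, and by gene 14.1% were called higher and 14.7% lower in KO, and the median change was -0.0015.

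Lymphocyte genes that were called were higher in KO, and the called myeloid genes were lower. Of the 11 tested lymphocyte genes 6 rose (Cd3d, Cd3e, Thy1, Xcl1, Ctsw and Nkg7) and 0 fell, beside 14.1% of all genes that rose. Their median change was 0.38, and 10 of the 11 changes were positive. Of the 3 tested myeloid genes 0 rose and 2 fell (Cd207 and Cd86), beside 14.7% of all genes, with a median change of -0.41, and Fcer1g had a change of -0.05. With median scaling or the mean of a gene's tested probes 0 myeloid genes were called. None of the 3 tested pan-leukocyte genes was called at an adjusted p below 0.05 (median change 0.06). In bulk RNA, a change in the number of cells and a change in RNA per cell cannot be told apart. In 8 of the 11 lymphocyte genes every KO array lay above every CON array, beside 22.7% of all genes, and in 2 of the 3 myeloid genes every KO array lay below, beside 22.5%.

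**Figure D1:**
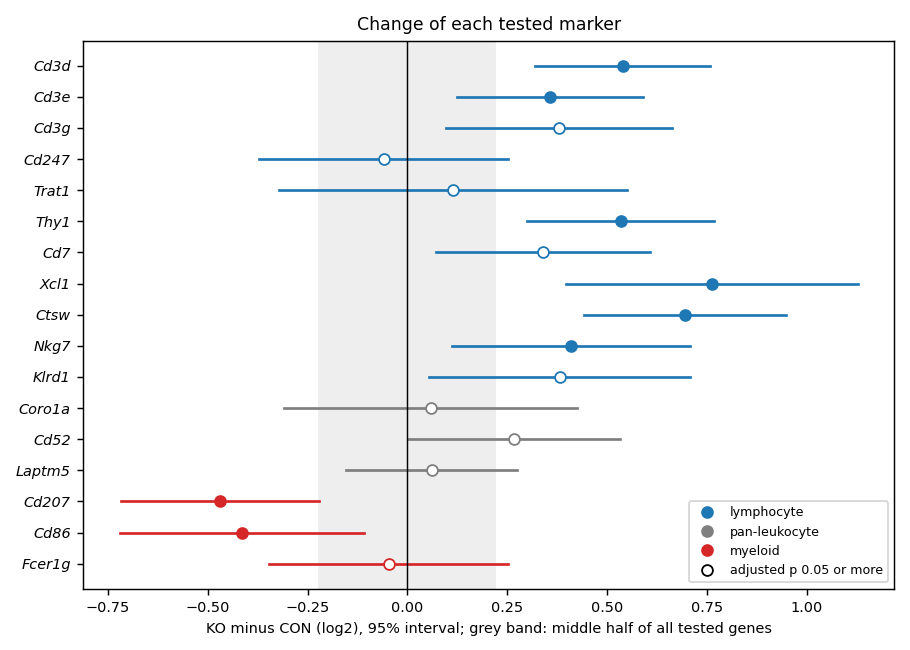
Change of each tested marker gene, KO minus CON in log2 units on the horizontal axis, with its 95% interval. Blue genes mark lymphocytes, grey genes both kinds of leukocyte and red genes myeloid cells, filled points have an adjusted p below 0.05, and the grey band spans the changes between the quartiles of all tested genes (-0.22 to 0.22). The lymphocyte genes lie mostly to the right of the band, and Cd207 and Cd86 to its left.

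The CD3 chains carry the signal of the T cell receptor into the cell and define the T lineage. Cd3d, which encodes the δ chain, stood at 8.21, 8.29 and 8.29 in CON and at 8.90, 8.71 and 8.78 in KO. All 3 KO arrays lay above all CON arrays, by 0.54 ± 0.10 (1.45-fold, adjusted p = 0.0040). Cd3e, the ε chain, read 8.49, 8.66 and 8.71 in CON and 9.05, 8.90 and 8.99 in KO. Its groups did not overlap either, and it rose by 0.36 ± 0.10 (1.28-fold, adjusted p = 0.032). Cd3g, the γ chain, read 10.11, 10.28 and 10.08 in CON and 10.63, 10.31 and 10.67 in KO. The lowest KO array came close to the highest CON array, and the change of 0.38 ± 0.12 missed the threshold (adjusted p = 0.052). Cd247 encodes the ζ chain, the signaling dimer of the receptor, and read 6.07, 5.96 and 6.19 in CON and 5.74, 6.09 and 6.21 in KO. Its arrays overlapped (change -0.06, 95% interval -0.37 to 0.25, adjusted p = 0.79), and its other 2 probes were detected on 1 CON array or on none. The call of Cd3e ended without CON replicate 1 or 2 (adjusted p = 0.084 and 0.053) and without KO replicate 1, 2 or 3 (0.097, 0.059 and 0.086). In all it was lost in 8 of 19 other settings, among them median scaling (adjusted p = 0.18) and the methods' t-test (0.056). Cd3g was called in 7 of 19 other settings, among them the authors' normalized values (adjusted p = 0.0097) and the omission of KO replicate 2 (change 0.49, adjusted p = 0.026).

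Cd3g, Cd3d and Cd3e are neighbours on chromosome 9, with no other gene between them in RefSeq (GRCm38.p6). The promoters of both called genes of this cluster are shown because they rose together in KO. They were taken from RefSeq (GRCm38.p6) from 250 bases before to 50 bases after the start, Cd3d at chr9:44981536-44981835 on the plus strand and Cd3e at chr9:45009562-45009861 on the minus strand. Each is printed 5′ to 3′ in the direction of transcription. The capitals mark matches on either strand to an ETS core (AGGAAG, held by 35.4% of 32851 mouse promoters of the same length) and to an E-box (CAGGTG, held by 20.2%). A RUNX core (TGTGGT, 16.8%) and an AP-1 element (TGACTCA, 5.2%) were searched as well, and no matches overlapped.
Cd3d: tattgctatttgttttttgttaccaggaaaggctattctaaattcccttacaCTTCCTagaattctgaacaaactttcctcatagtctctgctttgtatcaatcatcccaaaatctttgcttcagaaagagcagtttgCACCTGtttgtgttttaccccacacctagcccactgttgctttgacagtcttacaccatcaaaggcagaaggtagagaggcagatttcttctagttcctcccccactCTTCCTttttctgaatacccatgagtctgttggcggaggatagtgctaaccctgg
Cd3e: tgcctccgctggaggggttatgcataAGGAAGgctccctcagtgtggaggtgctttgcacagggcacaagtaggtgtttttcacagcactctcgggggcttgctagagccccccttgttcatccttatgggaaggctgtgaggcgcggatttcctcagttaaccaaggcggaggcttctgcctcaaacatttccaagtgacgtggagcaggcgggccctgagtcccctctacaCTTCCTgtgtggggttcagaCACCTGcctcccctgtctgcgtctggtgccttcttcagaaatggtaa
Each promoter held 2 ETS cores and 1 E-box. A match to a short motif describes the sequence and is not a measured binding site.

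Beyond the receptor, genes of early T cell signaling and of the lymphocyte surface were less uniform. Thy1, a glycoprotein anchored in the membrane of mouse T cells and also made by fibroblasts, stood at 9.73, 9.79 and 9.55 in CON and at 10.29, 10.16 and 10.22 in KO. The groups were well separated (change 0.53 ± 0.10, 1.45-fold, adjusted p = 0.0058). Which cells the Thy1 RNA came from was not tested. Cd7, a surface glycoprotein of T and NK cells, read 5.56, 5.27 and 5.36 in CON and 5.58, 5.82 and 5.81 in KO. It lay near the detection limit, on 2 CON arrays and 3 KO arrays, and its change of 0.34 ± 0.12 missed the threshold (adjusted p = 0.062). It was called only without CON replicate 1 (0.41, adjusted p = 0.041) and with array weights (0.37, adjusted p = 0.041). Cd2, the receptor for CD48 on mouse T cells, read 4.82, 5.27 and 5.03 in CON and 5.26, 5.80 and 5.66 in KO. It was detected on 2 KO arrays and on no CON array, the groups overlapped, and it was not tested. Trat1 encodes an adaptor that stabilizes the T cell receptor complex, and its probes differed. On the brighter probe it read 7.74, 6.95 and 7.22 in CON and 7.59, 7.35 and 7.31 in KO, with the groups overlapping (change 0.12 ± 0.19, adjusted p = 0.70). On the dimmer one all KO arrays lay above all CON arrays, with a change of 0.39 ± 0.11 (adjusted p = 0.028). Lat, the adaptor that links the receptor to calcium and Ras signaling, was not detected on any array (4.41 to 4.82).

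Among the tested lymphocyte markers, Xcl1 and Ctsw held the largest changes. Xcl1, which encodes lymphotactin, a chemokine that attracts dendritic cells bearing its receptor, read 6.64, 6.34 and 7.02 in CON and 7.41, 7.47 and 7.41 in KO. The CON arrays were spread and the KO arrays close together, with a change of 0.76 ± 0.16 (1.70-fold, adjusted p = 0.0087). Ctsw encodes cathepsin W, a cysteine protease of NK and cytotoxic T cells, and stood at 7.82, 8.10 and 8.12 in CON and at 8.64, 8.75 and 8.73 in KO. The change was 0.70 ± 0.11 (1.62-fold, adjusted p = 0.0023), with a clear gap between the groups. Nkg7, a protein of cytotoxic granules, read 8.13, 8.25 and 8.47 in CON and 8.86, 8.71 and 8.51 in KO. Its highest CON array came close to its lowest KO array, and it rose by 0.41 ± 0.13 (1.33-fold, adjusted p = 0.047). That call ended without CON replicate 1 or 2 (adjusted p = 0.12 and 0.10) and without KO replicate 1 or 2 (0.15 and 0.12). In all it was lost in 10 of 19 other settings, among them median scaling (adjusted p = 0.12), no filter (0.089) and the methods' t-test (0.14). Klrd1, which encodes the CD94 chain of NK receptors, read 6.76, 6.27 and 6.51 in CON and 7.03, 6.72 and 6.93 in KO. The highest CON array overlapped the KO arrays (change 0.38 ± 0.14, adjusted p = 0.083), and Klrd1 was called without it (CON replicate 1, 0.50, adjusted p = 0.034).

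The promoters of Xcl1 and Nkg7 are shown as those of the called effector genes with a RefSeq entry (GRCm38.p6). They lie at chr1:164935473-164935772 on the minus strand and chr7:43436888-43437187 on the plus strand. The capitals mark the ETS core and the RUNX core (TGTGGT or its reverse complement).
Xcl1: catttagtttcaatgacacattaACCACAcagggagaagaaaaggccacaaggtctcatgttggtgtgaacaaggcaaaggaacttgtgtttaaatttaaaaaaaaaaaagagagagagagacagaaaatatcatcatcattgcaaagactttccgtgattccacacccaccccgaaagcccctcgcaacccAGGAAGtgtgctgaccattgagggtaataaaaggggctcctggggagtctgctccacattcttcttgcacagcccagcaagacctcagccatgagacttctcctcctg
Nkg7: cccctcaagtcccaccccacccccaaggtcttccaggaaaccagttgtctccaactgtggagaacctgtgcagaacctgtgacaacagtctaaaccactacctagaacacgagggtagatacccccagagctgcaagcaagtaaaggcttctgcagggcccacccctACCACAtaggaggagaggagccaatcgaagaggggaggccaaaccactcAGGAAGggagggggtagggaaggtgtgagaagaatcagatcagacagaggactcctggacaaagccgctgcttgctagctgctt
Both held 1 ETS core and 1 RUNX core, and neither held the E-box that the CD3 promoters had.

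Other defining genes of cytotoxic lymphocytes gave no signal. Gzma, Gzmb and Gzmc, which encode granzymes, proteases that trigger death of target cells, were detected on none of the 6 arrays. Gzma lay between 4.24 and 4.50, Gzmb between 4.26 and 4.45, and Gzmc between 4.35 and 4.63, within the background. The 4 probes of Klrk1, the activating receptor NKG2D, were not detected either. A difference in these granzyme and receptor genes was not detectable with these arrays. Ltb, which encodes lymphotoxin β, read 4.68, 5.06 and 4.61 in CON and 5.26, 5.46 and 5.24 in KO. It was detected on 2 KO arrays and on no CON array, and was not tested.

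**Figure D2:**
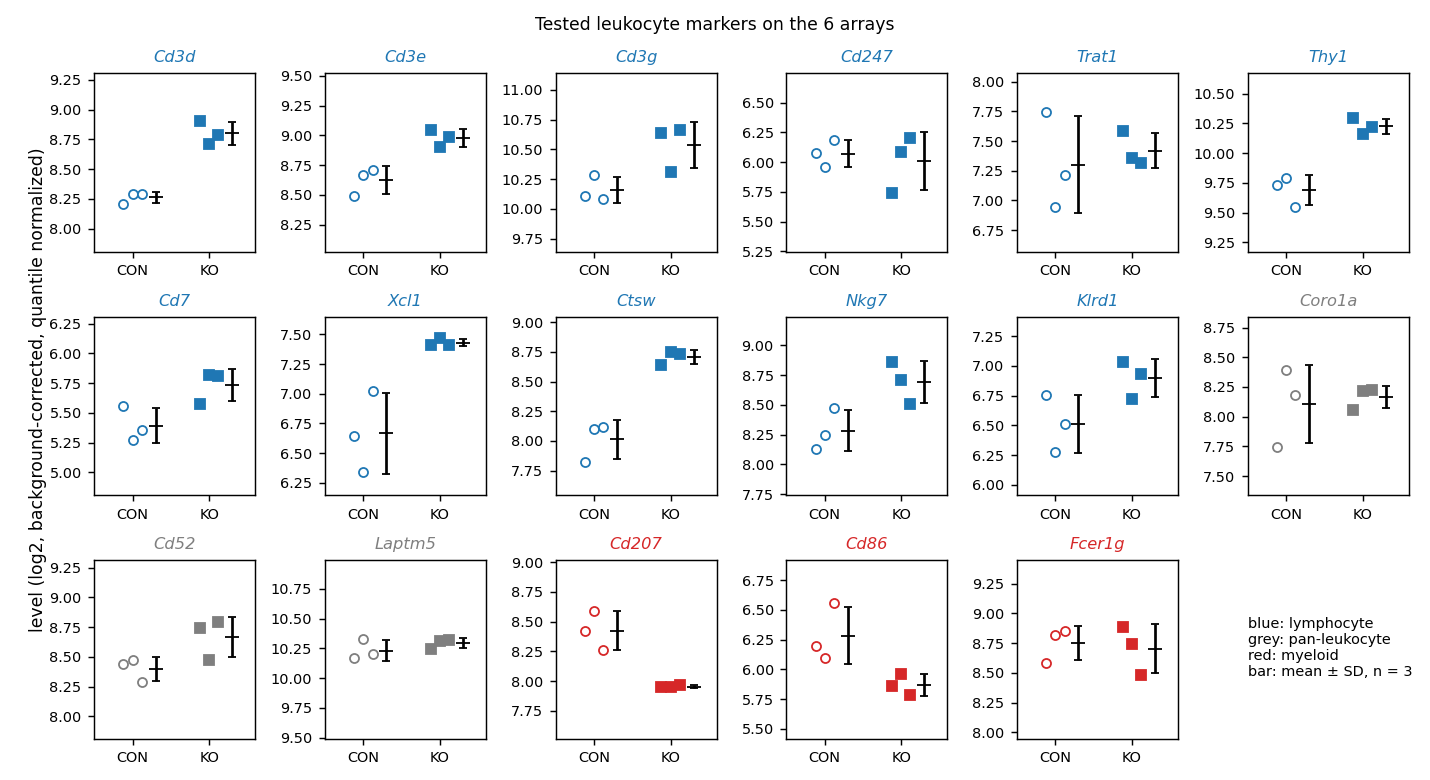
Levels of the 17 tested marker genes on each array, as background-corrected and quantile-normalized log2 intensity of the brightest tested probe. Open circles are CON arrays, filled squares KO arrays and bars the mean ± SD (n = 3), with lymphocyte genes in blue, pan-leukocyte genes in grey and myeloid genes in red. Cd3d, Thy1 and Ctsw show a gap with KO above CON, Cd207 shows one with KO below, and Cd247, Laptm5 and Fcer1g overlap.

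None of the pan-leukocyte genes was called. Laptm5, a lysosomal membrane protein of blood cells, read 10.17, 10.33 and 10.20 in CON and 10.24, 10.31 and 10.32 in KO. The groups overlapped, and the interval of the change (0.06, 95% interval -0.15 to 0.28, adjusted p = 0.68) leaves out a change as large as that of Cd3d. Cd52, a small surface glycoprotein of lymphocytes and other leukocytes, had a change of 0.27 ± 0.12 (adjusted p = 0.13). By brightest probe it was the only 1 of these genes with an unadjusted limma p under 0.05 (0.048), and the methods' t-test called 0 of them. Coro1a encodes an actin regulator of leukocytes and changed by 0.06 ± 0.16 on its brightest probe (adjusted p = 0.83), while another of its probes lay lower on all KO arrays (-0.35 ± 0.11, adjusted p = 0.053). Ptprc, which encodes CD45, the surface phosphatase that defines leukocytes, was not detected by its 2 probes on any array (4.24 to 4.57). Its level is therefore unknown here, and it does not serve as a count of leukocytes.

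Among the myeloid genes, Cd207 carried the clearest difference. Its brighter probe read 8.42, 8.59 and 8.26 in CON and 7.95, 7.95 and 7.97 in KO. The KO arrays lay close together and below every CON array, and Cd207 fell by 0.47 ± 0.11 (1.38-fold lower, adjusted p = 0.013). Its second tested probe read 6.84, 6.91 and 6.60 in CON and 6.93, 6.58 and 6.61 in KO, which overlapped (change -0.08 ± 0.13, adjusted p = 0.71). With the mean of both probes the change was -0.27 (adjusted p = 0.089), and with median scaling the call ended as well (adjusted p = 0.070). Cd86, a costimulatory ligand for T cells, read 6.20, 6.10 and 6.56 in CON and 5.86, 5.97 and 5.78 in KO. It fell by 0.41 ± 0.13 (1.33-fold lower, adjusted p = 0.0495), while its second tested probe gave a change of -0.17 ± 0.13 (adjusted p = 0.37). The call ended in 16 of 19 other settings. With the authors' normalized values or no background correction the change was -0.18 (adjusted p = 0.084). It also ended without CON replicate 1 or 3 (adjusted p = 0.067 and 0.12) and without KO replicate 1, 2 or 3 (0.11, 0.078 and 0.14), each of which leaves 1 called myeloid gene.

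Cd83, a surface protein of mature dendritic cells, read 5.28, 5.64 and 5.09 in CON and 4.41, 5.01 and 4.86 in KO. It was detected on 2 CON arrays and on no KO array, and was not tested. Fcer1g encodes the signaling γ chain of Fc receptors, which Langerhans cells and some lymphocytes share. It read 8.59, 8.81 and 8.85 in CON and 8.89, 8.74 and 8.48 in KO, with overlap (change -0.05 ± 0.13, adjusted p = 0.83). Spi1, the transcription factor PU.1 of the myeloid lineage, lay between 4.31 and 4.83 and was not detected on any array. Tyrobp, the adaptor DAP12, lay between 4.29 and 4.52 and was not detected either, nor was Ly75, the endocytic receptor DEC-205. Lyz2, which encodes lysozyme, was detected by 1 of its 3 probes on 1 CON array, where it read 5.34. Aif1, a calcium-binding protein of macrophages, was detected on 1 KO array. The myeloid side thus rests on 3 tested genes, and Spi1 and Tyrobp, which both occur in Langerhans cells, were below detection in both groups.

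The Cd207 promoter is shown beside those of the lymphocyte genes as that of the called myeloid gene with an entry. It lies at chr6:83677808-83678107 on the minus strand (RefSeq, GRCm38.p6), and the capitals mark the ETS core and the AP-1 element.
Cd207: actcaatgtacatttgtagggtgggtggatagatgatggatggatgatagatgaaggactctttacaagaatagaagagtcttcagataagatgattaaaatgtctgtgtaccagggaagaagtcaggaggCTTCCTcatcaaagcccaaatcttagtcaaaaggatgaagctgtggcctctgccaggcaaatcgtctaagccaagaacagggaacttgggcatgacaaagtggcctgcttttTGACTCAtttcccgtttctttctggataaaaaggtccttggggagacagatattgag
This promoter held 1 ETS core and 1 AP-1 element, and of the 5 promoters printed it alone held the latter. The ETS core was in all 5. The motifs were chosen with these sequences in view, so their counts in the 5 promoters describe the sequences and are not read as a result.

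Array by array, both sides split by group. The 11 lymphocyte genes deviated from their own 6-array means by -0.18, -0.28 and -0.15 on average on the CON arrays and by 0.23, 0.16 and 0.21 on the KO arrays (log2). On the KO arrays 9 or 10 of the 11 genes lay above their mean, and on the CON arrays 0 to 3. The 3 myeloid genes deviated by 0.07, 0.17 and 0.22 on the CON arrays and by -0.10, -0.11 and -0.25 on the KO arrays. The pan-leukocyte genes lay between -0.19 and 0.09 in CON and between 0.02 and 0.13 in KO. In both lists the 3 arrays of each group lay on the same side. Summed background-corrected intensity over the lymphocyte probes ranged from 3529 to 3699 in CON and from 4670 to 5213 in KO. Over the myeloid probes it ranged from 822 to 947 in CON and from 689 to 792 in KO, and over the pan-leukocyte probes from 1667 to 1934 and from 1862 to 1977, which overlapped.

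**Figure D3:**
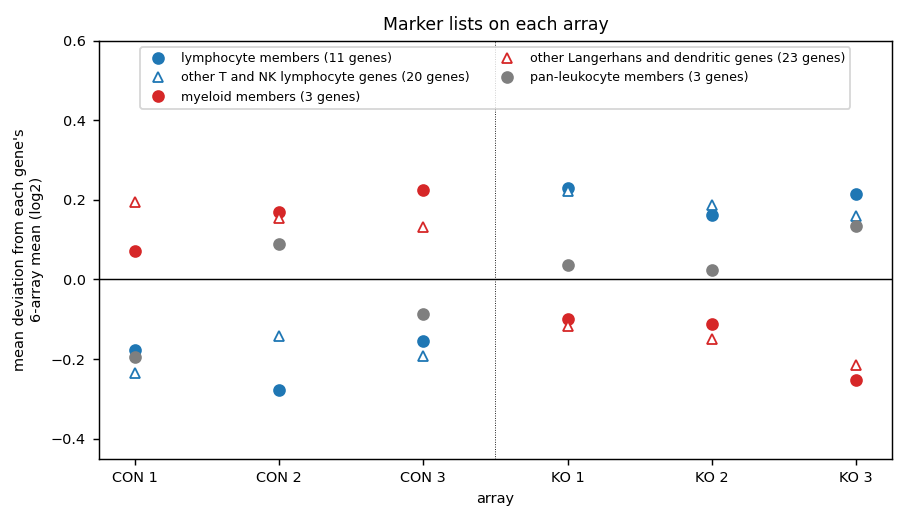
Mean deviation of each marker list from the genes' own means over the 6 arrays (log2, vertical axis), for each array on the horizontal axis. Filled circles are the marker genes described here and open triangles the further genes of the same cells, and grey circles the pan-leukocyte genes. Lymphocyte genes lie below 0 on the 3 CON arrays and above 0 on the 3 KO arrays, and myeloid, Langerhans and dendritic genes the other way. The lists of further genes include some that passed the detection filter through a single group, so part of their split was set by the filter.

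Further genes of T and NK cells were read from a longer list, of which 62 genes had a named probe and 20 were tested. Of these 9 rose and 1 fell, beside 14.1% and 14.7% of all genes, with a median change of 0.38. Some of the 9 passed the filter only through the KO arrays in which they were high. Among the 13 genes detected on all 6 arrays, 5 rose and 1 fell, and the median change was 0.12. The median of the 20 genes was 0.14 with the authors' normalized values or no background correction, and 0.24 with an offset of 50. Summed intensity over this list did not separate the groups, at 7709 to 8653 in CON and 7557 to 8527 in KO. Ccl4, a chemokine of activated lymphocytes and macrophages, was detected on 3 KO arrays and no CON array and was at least 1.93-fold higher in KO, which is given as a description since the filter chose it by its KO arrays. Cd69, an early activation receptor that also retains T cells in tissue, read 5.88, 5.73 and 5.88 in CON and 6.72, 6.76 and 6.98 in KO. The groups were far apart, and the change was 0.99 ± 0.11 (1.99-fold, adjusted p = 0.00032). Itgae encodes the integrin chain CD103, which binds E-cadherin on epithelial cells and is also made by some dendritic cells, and read 8.10, 8.14 and 8.21 in CON and 8.96, 8.89 and 8.98 in KO. It rose by 0.79 ± 0.09 (1.73-fold, adjusted p = 0.00042), on 3 of its 4 tested probes. Sh2d2a, a T cell adaptor that binds Lck, rose by 0.75 ± 0.10 (adjusted p = 0.0011).

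The other genes of that list that passed were named after their values were seen. Cd8b1, the β chain of CD8, was detected on all 3 KO arrays and on no CON array (at least 1.22-fold higher), as were Cd5 (at least 1.08-fold) and Itgb2 (at least 1.13-fold). These genes and Ccl4 passed the filter through their KO arrays alone, so their direction was set by it and they lend no support to the count of 9. Hcst (the adaptor DAP10) and Vav1 rose by 0.43 and 0.37. Rasgrp1, which activates Ras in T cells and is also found in keratinocytes, was the gene that fell (-0.39 ± 0.09, adjusted p = 0.013), and it missed the threshold once KO replicate 3 was left out (0.052). Prf1, which encodes the pore-forming perforin, had a change of -0.06 (adjusted p = 0.67). The calls of Itgb2 and Hcst ended without CON replicate 1 (adjusted p = 0.12 and 0.10), CON replicate 2 (0.073 and 0.055), KO replicate 1 (0.11 and 0.090) and KO replicate 2 (0.087 and 0.14). That of Itgb2 also ended without CON replicate 3 (0.059), that of Hcst without KO replicate 3 (0.056), and that of Vav1 in every omission but that of CON replicate 2 (adjusted p between 0.062 and 0.099). Calls also depended on the processing. With the authors' normalized values those of Cd5 (adjusted p = 0.066), Itgb2 (0.16) and Hcst (0.097) ended. With median scaling those of Itgb2 (0.10), Hcst (0.13), Vav1 (0.24) and Rasgrp1 (0.22) ended. With no filter those of Itgb2 (0.087) and Hcst (0.080) ended.

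**Figure D4:**
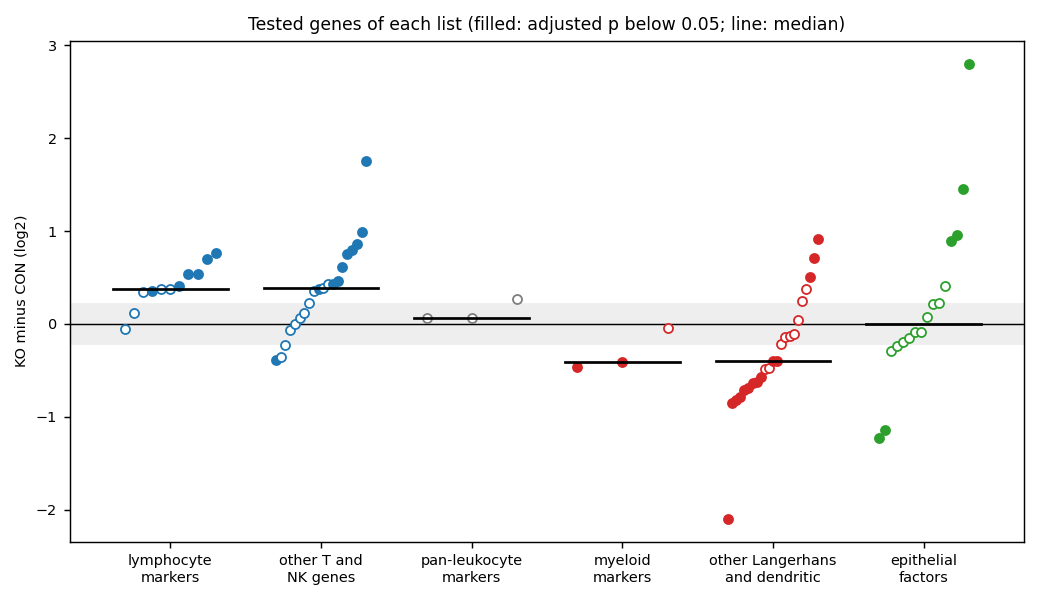
Changes of the tested genes of each list (KO minus CON, log2, vertical axis), with lists along the horizontal axis. Filled points have an adjusted p below 0.05, black lines are medians and the grey band spans the quartiles of all tested genes. The medians are 0.38 for both lymphocyte lists, 0.06 for pan-leukocyte genes, -0.41 and -0.40 for the myeloid and the Langerhans and dendritic lists, and near 0 for epithelial factors, and with the authors' normalized values those of the lymphocyte lists part to 0.33 and 0.14 and those of the myeloid and Langerhans lists are both -0.18.

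Further genes of Langerhans and dendritic cells moved mainly down. Of 66 with a named probe 23 were tested, 11 fell and 3 rose, beside 14.7% and 14.1% of all genes (median change -0.40). Among the 15 detected on all 6 arrays, 9 fell and 1 rose, with a median of -0.48. The median of the 23 genes was -0.18 with the authors' normalized values or no background correction. Genes of antigen presentation on MHC class II were among them. Cd74, the invariant chain that guides class II molecules, read 11.25, 11.51 and 11.23 in CON and 10.55, 10.52 and 10.37 in KO. It fell by 0.85 ± 0.11 (1.80-fold lower, adjusted p = 0.00091), with every KO array below every CON array. H2-DMb1, a chain of the peptide loading factor, fell by 0.82 ± 0.09 (1.76-fold lower, adjusted p = 0.00045), and H2-Eb1, a class II β chain, by 0.78 ± 0.11 (1.72-fold lower, adjusted p = 0.0012). H2-Ab1 and H2-DMa fell too (chosen after their values were seen), while H2-Aa had a change of -0.48 that missed the threshold (adjusted p = 0.13). Irf4, a transcription factor of dendritic cells that melanocytes and lymphocytes also use, read 6.79, 6.50 and 6.72 in CON and fell below detection on the KO arrays. It was at least 2.68-fold lower in KO, a description only, since Irf4 passed the filter through its CON arrays alone. Its direction was set by the filter, and it lends no support to the count of 11.

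Genes outside the named rule filled out that list. Alox5 and Alox5ap, which act together in leukotriene synthesis, fell by 0.69 and 0.57, and Evi2a fell by 0.63. Arhgdib and Lcp1, which serve the cytoskeleton of all leukocytes, fell by 0.39 and 0.40, and the call of each was lost with the omission of any array but CON replicate 1 (adjusted p between 0.053 and 0.068). The 3 that rose were Cd1d1, which presents lipids to NKT cells (at least 1.55-fold higher, detected on KO arrays alone), Unc93b1, which escorts Toll-like receptors (0.71 ± 0.15), and Lst1 (0.50 ± 0.15, adjusted p = 0.038). The filter set the direction of Cd1d1, which lends no support to the count of 3. Lst1 lost its call when CON replicate 1, CON replicate 3, KO replicate 2 or KO replicate 3 was omitted (adjusted p between 0.074 and 0.13). Alox5 was not called without CON replicate 3 (adjusted p = 0.059).

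Signals that keratinocytes make for these cells were read from another list, with 16 genes tested, of which 4 rose and 2 fell, beside 14.1% and 14.7% of all genes. Neither share is read as a result about the list. Il34, the ligand that maintains Langerhans cells, stood at 9.61, 9.62 and 9.66 in CON and at 8.41, 8.42 and 8.38 in KO. The arrays of each group were nearly identical, and Il34 fell by 1.23 ± 0.09 (2.35-fold lower, adjusted p = 3.8e-05). Cxcl14, a chemokine of resting epithelium, fell by 1.14 ± 0.11 (2.21-fold lower, adjusted p = 0.00016). Il7, a survival factor of T cells, read 6.58, 6.58 and 6.59 in CON and 7.47, 7.52 and 7.45 in KO. It rose by 0.90 ± 0.09 (1.86-fold, adjusted p = 0.00018). Cxcl9, an interferon-induced ligand of the chemokine receptor CXCR3, rose by 2.81 ± 0.10 (6.99-fold, adjusted p = 1.4e-06). Skint3, of a family whose member Skint1 selects γδ T cells for the epidermis, and Cxcl10 were the others that rose, by 0.96 ± 0.11 and 1.45 ± 0.16 (chosen after their values were seen). Il15, which sustains epidermal T cells, had a change of 0.22 ± 0.09 (adjusted p = 0.13) and Tgfb1, needed by Langerhans cells, one of -0.08 ± 0.11 (adjusted p = 0.64). For Tgfb1 the study reports lower mRNA in KO cells by qPCR, and weaker staining of the ligand proteins in KO skin. Whether these factors take part in the marker changes was not tested.

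**Figure D5:**
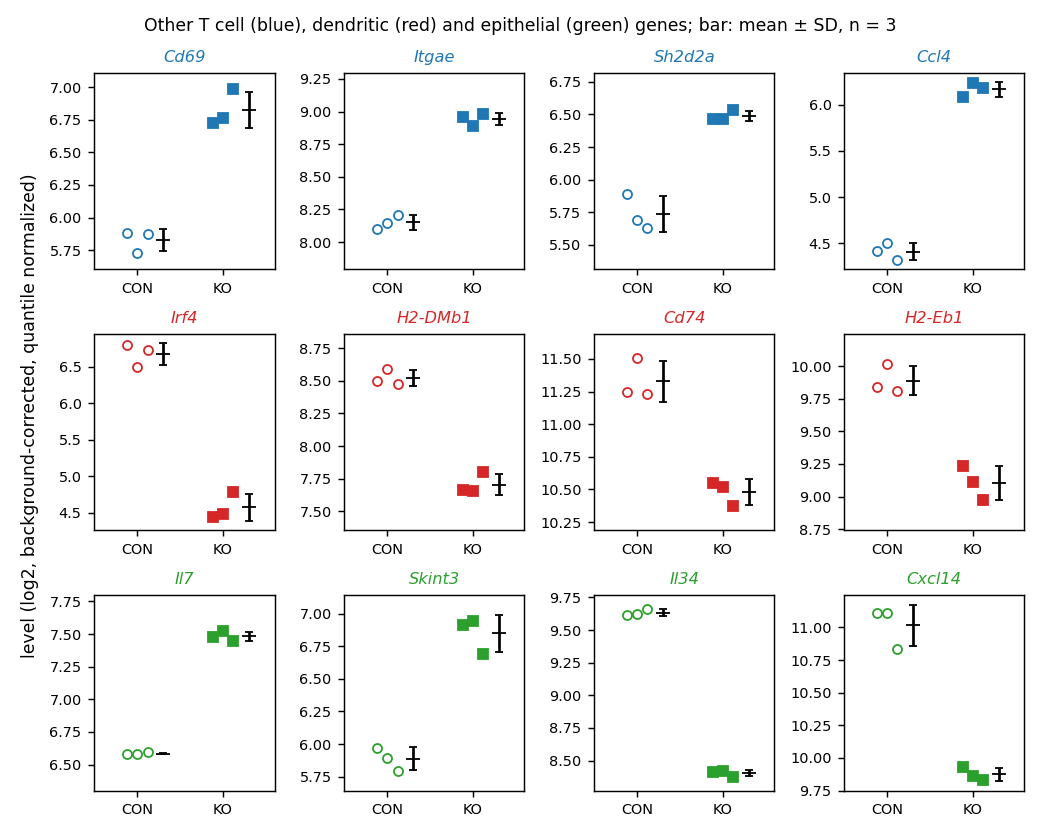
Levels on each array (log2) of 4 further T cell genes in blue, 4 Langerhans and dendritic genes in red and 4 epithelial factors in green. Open circles are CON arrays, filled squares KO arrays and bars the mean ± SD (n = 3). The groups do not overlap in any of the 12 genes, which were picked for their small adjusted p, so that choice set the gap. Ccl4 in CON and Irf4 in KO lie below detection, and each passed the filter through its other group alone.

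Markers of other cells were measured beside these. Of B cell genes 0 of 6 with a named probe were detected on any array, of macrophage genes 0 of 11, and of neutrophil genes 1 of 9, which left none to test. Summed intensity over the macrophage genes was 54.7 to 63.6 in CON and 64.0 to 74.8 in KO, and over the neutrophil genes 46.7 to 51.9 and 57.0 to 86.9. With at most 1 gene of either list detected, these sums lay near the background and are not read as a difference. Several minor cell types had lower markers in KO. Of 4 tested melanocyte genes 3 fell, beside 14.7% of all genes (median change -0.80, summed intensity 630 to 686 in CON and 284 to 306 in KO). The mast cell receptor gene Mrgprb2 fell by 1.07 and the erythroid gene Hba-a1 by 0.89, each the only tested gene of its list (summed intensity 528 to 602 and 656 to 783 in CON, 252 to 310 and 387 to 423 in KO). Dcn, the only fibroblast gene tested of 7, fell by 1.23 (summed intensity 131 to 184 in CON and 68.3 to 85.4 in KO). Of the endothelial genes 2 were tested and 0 were called, with a median change of 0.11 (summed intensity 70.3 to 96.5 in CON and 77.3 to 95.5 in KO). Keratinocyte markers were strong in every array. Of 8 tested 3 fell (Krt5, Trp63 and Krt15) and 0 rose, beside 14.7% and 14.1% of all genes. Their median change was -0.21 (summed intensity 87697 to 91532 in CON and 73023 to 75870 in KO). Krt14 was among the brightest probes and read the same on all arrays, which hides any change. The part of these shifts in the leukocyte marker changes was not tested.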

How the data were processed

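The authors deposited a probe intensity on a linear scale for 25697 probes on each of 6 arrays (3 CON and 3 KO), read out with GenomeStudio 2011.1, as the submitters' processing notes have it, and not normalized. Beside it they deposited a detection p-value against the negative control beads. The authors' normalized intensity values, deposited separately, were made in GenomeStudio with an algorithm not given in the sources used here (all columns have a median of 110.9) and served as an alternative. Arrays were corrected and normalized with neqc of limma 3.58.1 (R 4.3.3; offset 16, quantile, log2), which understates changes of dim probes. The median intensity before normalization was 105.7 to 117.3 per array, and the number of arrays limits the precision. Probes with a detection p below 0.01 on at least 3 of 6 arrays were tested, KO against CON, with lmFit and eBayes, no covariate, two-sided.

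Names came from the platform annotation (23978 probes with 1 symbol). A probe that a whole group failed to detect has a bound in place of a change, set against each array's lowest detected signal or, if higher, the probe's own signal. Promoters came from RefSeq (GRCm38.p6), where 5 of the 8 called marker genes matched. The motifs were chosen with those sequences in view. The marker genes, lists and alternatives were chosen with earlier results of these data known. The text accounts for every marker gene, and names of each other list up to 4 tested genes with the smallest adjusted p, and Med1. The fit was tested on simulated data. Alternatives changed the background, offset, scaling, filter, moderation, array weights, replicates, pairing, probe rule and test.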

Additional observations from a re-analysis of the deposited data

How the results depend on the processing

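Over 19 other settings Cd3d, Thy1 and Ctsw kept their calls (adjusted p up to 0.037), and Xcl1 missed the threshold only with the methods' t-test (adjusted p = 0.075). No setting moved the median of all genes by over 0.1. Called myeloid genes that fell numbered 1 in place of 2 with the authors' normalized values, no background correction, an offset of 50, cyclic loess, no filter, detection on at least 1 array, trended and robust moderation and the methods' t-test, 0 with median scaling or the mean of a gene's tested probes, and 1 to 2 when each array was left out. Lymphocyte genes that rose (6) numbered 7 with the authors' values, no background correction, an offset of 50, detection on all 6 arrays, trended and robust moderation or the mean of a gene's tested probes, 4 with median scaling, 3 with the methods' t-test and 4 to 6 when each array was left out. With median scaling 788 probes were higher and 901 lower, against 1397 and 1452, and with the methods' t-test 952 were lower. That test called 3599 probes at an unadjusted p under 0.05 and 1905 after adjustment.

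Of the other T and NK genes, those that fell numbered 2 with the authors' values, no background correction, an offset of 50 and trended and robust moderation, 0 with median scaling and 0 to 2 when each array was left out, and those that rose 5 with detection on all 6 arrays or the methods' t-test. Under these last settings 1 Langerhans or dendritic gene rose in place of 3. With the mean of a gene's tested probes 4 epithelial factors fell. Uncalled genes changed sign in some settings. When each array was left out, Coro1a ranged from -0.12 (without CON replicate 1) to 0.20 (without CON replicate 2), and with the mean of its probes it was -0.080. Trat1 ranged from -0.063 (without CON replicate 2) to 0.34 (without CON replicate 1), Fcer1g from -0.14 (without KO replicate 1) to 0.064 (without KO replicate 3), with 0.0043 without CON replicate 3, and Cd247 from -0.16 (without KO replicate 3) to 0.078 (without KO replicate 1).

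Same-numbered CON and KO arrays did not deviate together (r of -0.03, 0.07 and -0.05 across probes). That gave no sign of pairing by number, but 3 arrays per group cannot exclude a weak pairing. With the replicate block 1241 probes were higher and 1277 lower, 5 lymphocyte genes rose and 1 myeloid gene fell, where Cd3e (adjusted p = 0.065), Nkg7 (0.086) and Cd86 (0.077) lost and Klrd1 (0.041) gained a call.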
